A study of Mus musculus with 8 samples.

Results

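The ERK feedback inhibitors described here are 10 mouse genes of the DUSP, SPRY and SPRED families, namely Dusp1, Dusp4, Dusp5, Dusp6, Dusp7, Spry1, Spry2, Spry4, Spred1 and Spred2. Every array probe whose accession belongs to one of them was taken, without regard to its signal, which gave 12 probes of the 39429 on the array and 10 genes of the 21612 that could be named. Spred1 had 3 probes and each other gene had 1. No member was changed past the threshold by irisin, meaning by at least 1.5-fold with an adjusted p under 0.05, and the largest changes were lower Spry4 and Spry2 signals and a higher Dusp5 signal, all from dim probes. Dusp5 turned in sign with 1 background correction, and Spry2 and Spry4 turned only where arrays were not scaled to each other or, for Spry2, were scaled to spike-in probes.

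Growth factor receptors activate RAS, which drives the kinases RAF, MEK and ERK in turn, and active ERK raises the transcription of proteins that shut the cascade down again. Sprouty (SPRY) and SPRED proteins act upstream, where they restrain the activation of RAS and RAF, and the dual-specificity phosphatases (DUSP) act at the end, where they remove the phosphates from ERK and related kinases. The transcripts of several of these genes, Dusp6 and Spry4 among them, are widely read as gauges of ERK output. In hepatocytes the cascade answers to growth factors such as EGF and HGF during regeneration.

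AML12 is a mouse hepatocyte line, and irisin is a peptide that is released from the membrane protein FNDC5. AML12 cells were kept for 24 h in serum-containing medium with 0.5 µg/ml irisin (irisin group, 4 arrays) or without it (control group, 4 arrays), and the RNA of each sample was hybridized to 1 one-color array. The comparison asks which transcripts of this hepatocyte line differ after treatment with irisin. The labels do not say whether the 4 samples of a group were separate cultures, so p-values measure the spread between these samples, which may be technical.

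Each group had a slide and a scan of its own, and effects of either cannot be told apart from those of irisin. The irisin arrays were brighter as a whole. The 75th percentile of the signal was 472 ± 70.1 in controls and 783 ± 71.6 with irisin (mean and SD, n = 4), and the geometric means differed by 1.67-fold. Values below are therefore log2 signals minus the log2 of that percentile on the same array, unless another scale is named. Of the hepatocyte markers, 8 of 8 were well above background on all 8 arrays. No array measured Thy1, Pdgfra and Des, 3 of 4 fibroblast or stellate markers, or Cdh5, 1 of 3 endothelial markers, well above background. Pecam1, an endothelial marker, was the 1 marker called (-0.61, lower with irisin). The endothelial marker Kdr (-0.56), the leukocyte marker Cd3e (-0.51) and the hepatocyte markers Krt18 (-0.47) and Trf (-0.39) were lower on the adjusted p alone, and Ptprc was not tested. The other tested markers did not pass the adjusted p, among them the fibroblast or stellate marker Col1a1 (0.0064) and the leukocyte marker Cd68 (0.0062). The part of these markers in the results was not tested. RNA of whole cultures was measured, so a lower share of cells expressing a gene and less RNA per cell cannot be told apart. Protein and ERK phosphorylation were not part of these data.

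RefSeq promoter sequences were at hand for 8 of the 10 genes on the build GRCm38.p6, running from upstream to just past the start of transcription. Dusp5 and Spry2 are shown because they were the 2 members whose irisin and control arrays did not overlap, in opposite directions. Capitals mark matches on either strand to any of 6 short motifs. They were the ETS motif CCGGAAG, the cAMP response element TGACGTCA and its shortened form TGACG, which lies inside the full one. The others were the AP-1 motif TGANTCA, the TATA box searched as TATAAA and the Sp1 motif GGGCGG.
Dusp5, chr19:53528895-53529194, plus strand: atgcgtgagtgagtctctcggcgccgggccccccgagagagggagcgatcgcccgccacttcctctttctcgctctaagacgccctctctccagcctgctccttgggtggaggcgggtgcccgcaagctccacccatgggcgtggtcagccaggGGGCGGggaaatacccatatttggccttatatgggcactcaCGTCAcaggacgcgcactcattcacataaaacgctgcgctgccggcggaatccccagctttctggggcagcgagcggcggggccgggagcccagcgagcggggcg
Spry2, chr14:105896770-105897069, minus strand: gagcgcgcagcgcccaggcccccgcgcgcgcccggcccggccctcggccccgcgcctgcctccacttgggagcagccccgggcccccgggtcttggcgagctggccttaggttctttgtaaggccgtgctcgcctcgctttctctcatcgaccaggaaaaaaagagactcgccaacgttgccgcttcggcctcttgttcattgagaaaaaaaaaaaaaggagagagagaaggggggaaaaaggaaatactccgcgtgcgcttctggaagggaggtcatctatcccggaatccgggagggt
The Dusp5 promoter held 1 GGGCGG and 1 TGACG, the latter read on the opposite strand, and the Spry2 promoter held none of the 6 motifs. Both are rich in G and C (66.7% and 62.7%) with 28 CpG each. Among all 32851 RefSeq promoters, 35.7% hold GGGCGG and 20.8% hold TGACG. Of the 8 member promoters, 6 held GGGCGG, 3 held TGACG (Dusp1, Dusp5 and Spred2) and only that of Dusp1 held TGACGTCA, which 1.79% of all promoters hold. None of the 8 held the ETS, AP-1 or TATA motif, which 8.86%, 7.81% and 13.6% of all promoters hold. These matches describe letters in the window and not sites in use.

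All 12 member probes were well above background on all 8 arrays and were tested, and 0 of the 12 were called. Across the 24091 probes tested with limma, 0.714% were called higher with irisin and 11.7% were called lower. On the adjusted p alone, 2 member probes were lower (Spry2 and Spry4) and 0 were higher, while 21.6% of all tested probes were lower and 2.96% were higher. The count of 2 of 12 is near this background. At an unadjusted p under 0.05, 1 member probe was higher and 2 were lower, beside 6.45% and 27.8% of all tested probes. In all, 6 of the 12 probes had a higher mean with irisin and 6 had a lower mean. The median change of the member probes was -0.015 on the log2 scale and that of all tested probes was -0.080. For 10 of the 12 probes, all but those of Spry2 and Spry4, the 95% confidence interval of the change lay inside 1.5-fold in both directions.

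**Figure D1:**
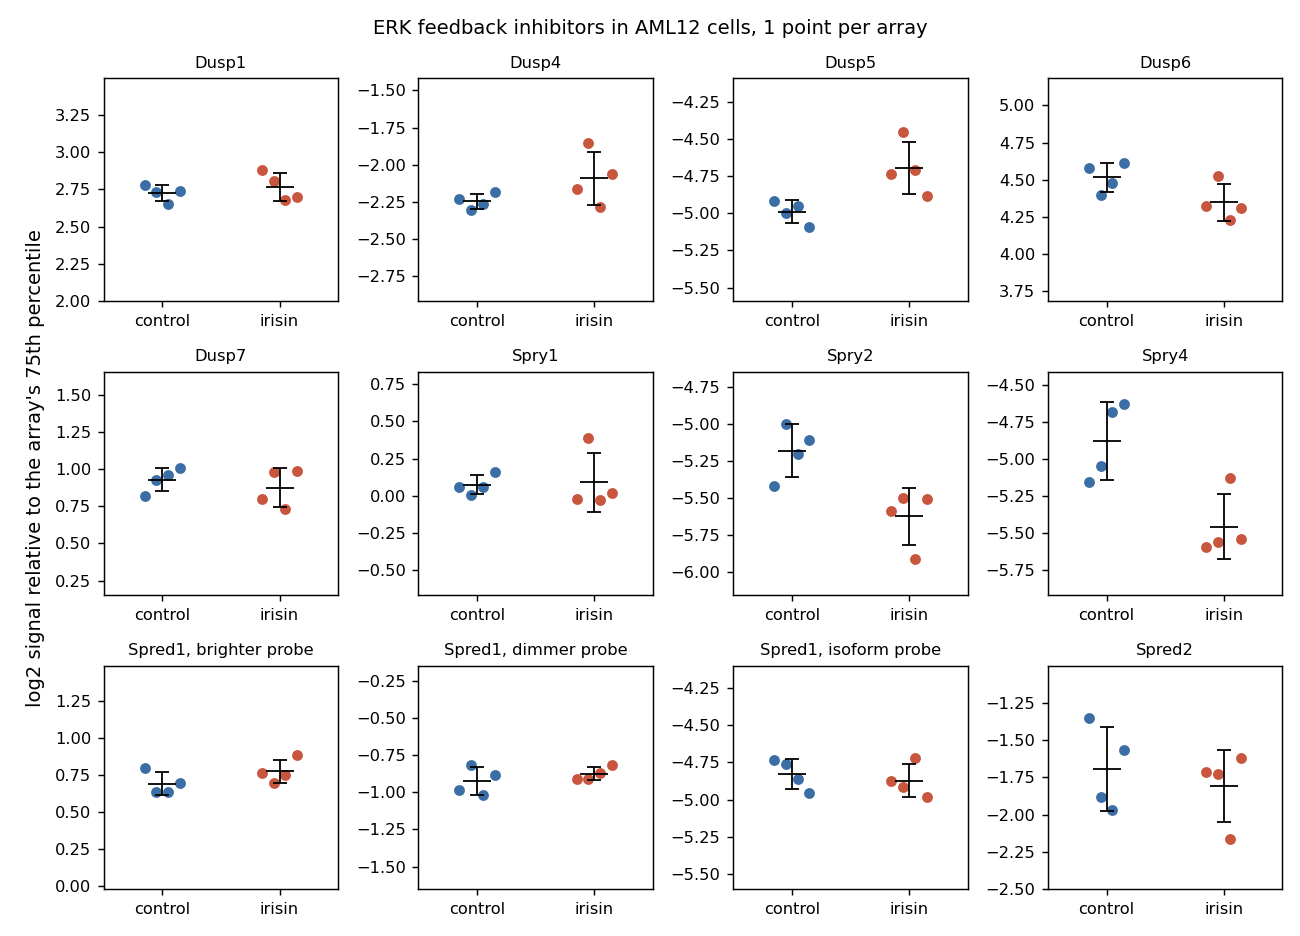
Signal of the 12 member probes on each array (points, log2 scale, 75th percentile of each array set to 0), with the mean and SD of the 4 arrays of each group. Every panel spans the same height, so that panels can be compared by the distance between groups, and the groups are apart without overlap in the panels of Dusp5 and Spry2.

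Dusp6 encodes the cytoplasmic phosphatase that is most selective for ERK. Its signal was 4.58, 4.40, 4.48 and 4.61 in the 4 controls and 4.33, 4.53, 4.23 and 4.31 in the 4 irisin samples. Irisin replicate 2 lay among the controls and the other 3 irisin arrays lay below all of them. The change was -0.17 (SE 0.092, adjusted p = 0.234 by limma), and the exact two-sided permutation test gave p = 0.0857. The tested probes were split by mean signal into 10 equal groups, and the brightest one, to which Dusp6 belongs, had a median change of -0.20.

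Dusp5 encodes a nuclear phosphatase that binds ERK and holds it in the nucleus. The control signals were -4.92, -5.00, -4.95 and -5.09, and those with irisin were -4.74, -4.46, -4.71 and -4.88. Every irisin array lay above every control array. The change was 0.29 (SE 0.10, 95% interval 0.070 to 0.517), which is 1.23-fold. The adjusted p was 0.0587 by limma and the exact permutation p was 0.0286, the smallest that 4 against 4 arrays can give. Of the probes measured on all 8 arrays, 4.18% were higher with irisin without overlap between the groups and 23.0% were lower without overlap, beside 1 and 1 of the 12 member probes. The adjusted p of Dusp5 ranged from 0.0390 without irisin replicate 4 to 0.150 without control replicate 4.

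Dusp4, a nuclear phosphatase of ERK that ERK itself induces, had signals of -2.23, -2.31, -2.26 and -2.18 on the control arrays. The irisin arrays gave -2.16, -1.86, -2.29 and -2.06. Irisin replicate 3 lay among the controls and the other 3 lay above all of them. The change was 0.15 (SE 0.099, adjusted p = 0.319 by limma), and 0.076 without irisin replicate 2. Dusp1, the immediate-early nuclear phosphatase of p38, JNK and ERK, ranged from 2.65 to 2.78 in controls and from 2.68 to 2.88 with irisin, so that the groups overlapped. Its change was 0.041 (95% interval -0.137 to 0.219). Dusp7, a cytoplasmic ERK phosphatase related to Dusp6, changed by -0.054 (95% interval -0.254 to 0.145), and its groups overlapped as well.

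Spry4 encodes an inhibitor of growth factor signaling upstream of RAF. The controls gave -5.15, -5.05, -4.68 and -4.63, and the irisin samples gave -5.59, -5.56, -5.13 and -5.54. Irisin replicate 3 lay just above control replicate 1, so the groups overlapped at 1 point. The change was -0.58 (SE 0.15, adjusted p = 0.0148 by limma), 1.49-fold lower, which is just short of the 1.5-fold threshold. The exact permutation p was 0.0571. Spry4 was called lower when control replicate 1 (-0.67), control replicate 2 (-0.63) or irisin replicate 3 (-0.69) was left out, and was not called when any other array was left out.

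Spry2, the most studied Sprouty gene, gave -5.42, -5.00, -5.20 and -5.11 on the control arrays. The irisin arrays gave -5.58, -5.50, -5.91 and -5.50. Every irisin array lay below every control array. The change was -0.44 (SE 0.12, 95% interval -0.711 to -0.171, adjusted p = 0.0220 by limma), 1.36-fold lower, with an exact permutation p of 0.0286. Without control replicate 2 the adjusted p was 0.0657, without control replicate 4 it was 0.0618 and without irisin replicate 3 it was 0.0560. Spry1, another Sprouty gene, gave 0.061, 0.0071, 0.061 and 0.16 on the control arrays. Irisin replicates 1, 3 and 4 gave -0.023, -0.026 and 0.018, and replicate 2 gave 0.39, above all controls. The change was 0.017 (95% interval -0.217 to 0.252) with all arrays and -0.082 without irisin replicate 2.

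Spred1 encodes a partner of neurofibromin that brings it to RAS at the membrane. Its 3 probes changed by 0.082 and 0.049 (both on the transcript NM_033524) and by -0.047 (on the transcript NM_001277256), with adjusted p of 0.540, 0.726 and 0.771 by limma. The groups overlapped for all 3 probes. Spred2, its close relative, varied more among replicates, from -1.97 to -1.35 in controls and from -2.17 to -1.62 with irisin. Its change was -0.12 (SE 0.16, 95% interval -0.468 to 0.237).

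The members that moved most were dim. Before scaling, the processed signal after background subtraction was 12.3 to 31.1 for Dusp5, 8.69 to 18.7 for Spry2 and 10.4 to 23.0 for Spry4. It was 14.0 to 30.5 for the Spred1 probe on NM_001277256 and about 1 for the negative control spots. The raw median spot signals of these 4 probes were only 28 to 49, 26.5 to 41, 31 to 46 and 33 to 51 in turn. Their local backgrounds were 18 to 28. With only the local background subtracted, the negative control spots averaged -5.78 to 0.059 by array. The unscaled geometric mean of the irisin arrays over that of the control arrays was 2.04-fold for Dusp5, 1.23-fold for Spry2 and 1.12-fold for Spry4. The 75th percentile of the arrays differed by 1.67-fold. The lower scaled values of Spry2 and Spry4 thus came from probes that brightened less than that percentile, and the higher value of Dusp5 from a probe that brightened more. These 4 probes lay in group 2 of 10 by mean signal, counted from the dimmest, a group of 2409 probes whose median change was -0.33. In that group 46.5% of the probes were lower with irisin and 1.78% were higher on the adjusted p alone. Against the median of the group, the change was 0.63 for Dusp5, 0.29 for the Spred1 probe, -0.11 for Spry2 and -0.25 for Spry4. For Dusp6, in group 10, the same difference was 0.036, and for Dusp4, in group 5, it was 0.15.

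**Figure D2:**
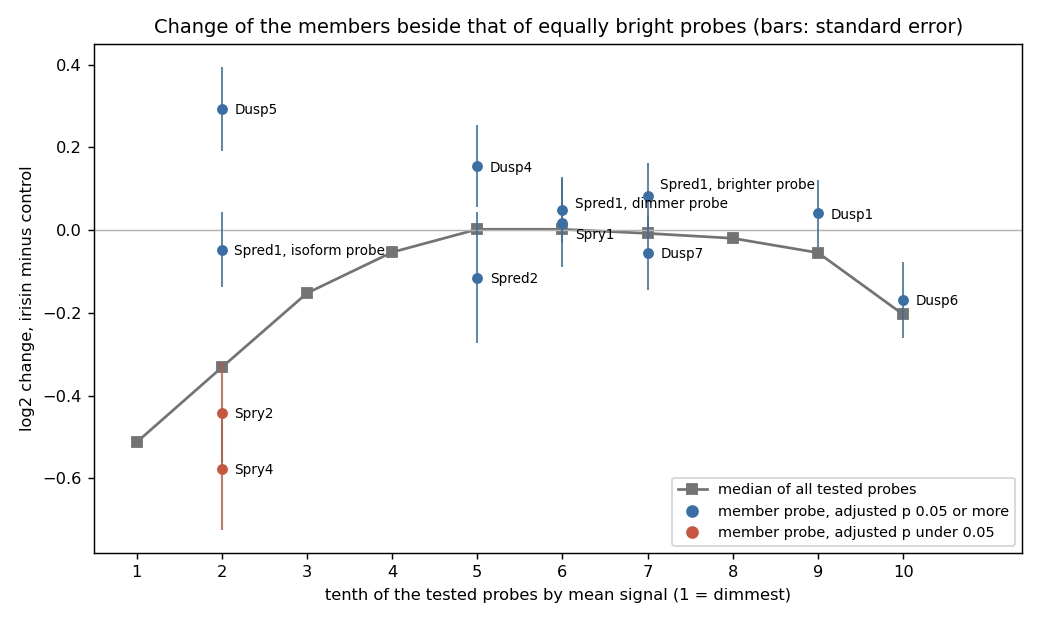
Log2 change of each member probe (circles, bars show the limma standard error) by its group of 10 equal groups of tested probes ordered by mean signal, with the median change of all tested probes in each group (squares). Spry2 and Spry4 lie below the median of group 2 (-0.33) by 0.11 and 0.25, and Dusp5 lies above it by 0.63.

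Which member passed the threshold changed with the way the arrays were brought to one scale. With quantile normalization Dusp5 was called higher (0.60, adjusted p = 0.00567 by limma) and with cyclic loess likewise (0.63, adjusted p = 0.00549), where 2.81% and 2.91% of all probes were called higher. Both settings moved the split of all calls from 172 higher and 2815 lower to 675 and 1013 (quantile) and to 699 and 926 (cyclic loess). Spry4 changed by -0.22 and -0.19 and Spry2 by -0.059 and -0.021 under these settings, none of them past the adjusted p. Scaling to the spike-in probes moved the median of all probes to 0.49 and gave 7490 higher and 372 lower calls, and leaving the arrays unscaled moved it to 0.66 and gave 14919 higher and 162 lower calls. Under these settings 6 and 9 of the 12 member probes were called higher, where 31.1% and 61.9% of all probes were, and Dusp6, Dusp7, Spry2, Spred2 and the Spred1 probe on NM_001277256 turned from lower to higher in both, and Spry4 when unscaled (0.16). Dusp5 stood at the top (0.86 and 1.03) and Spry4 at the bottom (-0.0080 and 0.16) of the 12 probes.

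The correction of the background mattered for the dim probes as well. With normexp, which models the background from the negative control spots and adds an offset of 50 to every signal, Dusp5 turned to -0.41. That offset is larger than the signal of Dusp5 on any array, and with an offset of 1, chosen after seeing the data, the change was 0.16. Spry4 was called lower with the offset of 50 (-0.61), where 15.9% of all probes were called lower, and changed by -0.46 (adjusted p = 0.0639 by limma) with an offset of 1. Spry2 changed by -0.58 and -0.35. The sign of Spry2 and Spry4 was the same under both offsets. With the offset of 50, however, Dusp5 and the Spred1 probe on NM_001277256 (-0.47) were lower too. The sign at that offset thus does not set Spry2 and Spry4 apart from the other dim members.

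**Figure D3:**
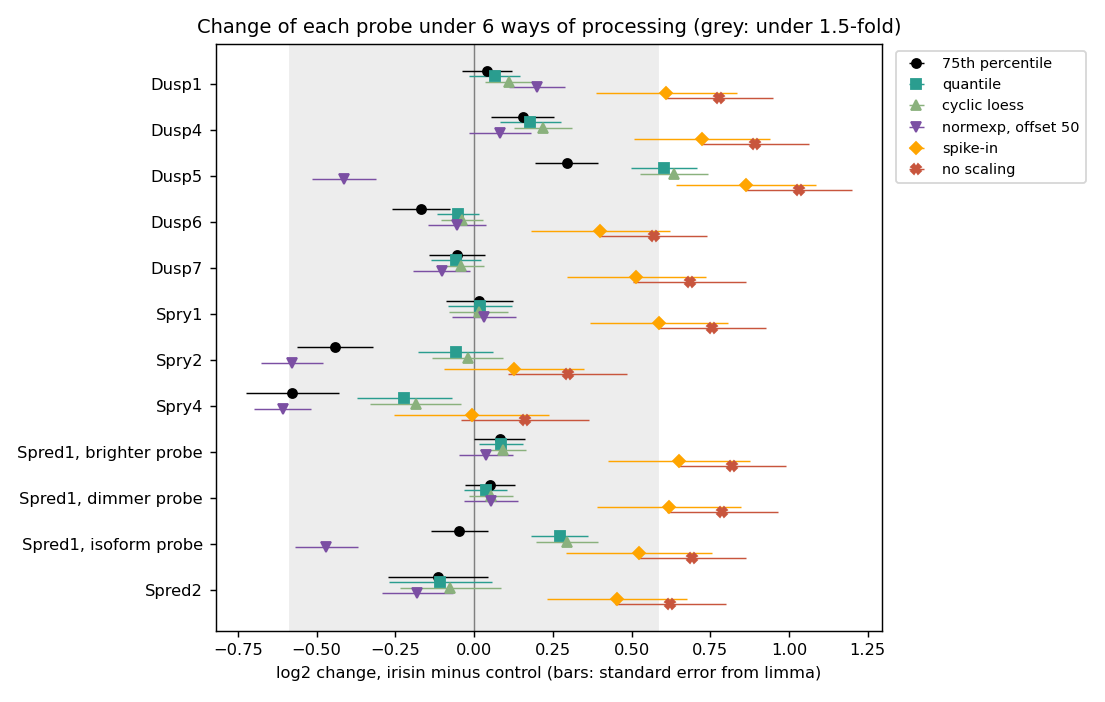
Log2 change of each member probe, irisin minus control, under 6 ways of processing, with limma standard errors as bars and changes under 1.5-fold shaded. Spike-in scaling and no scaling move all probes to the right together, and Dusp5 runs from -0.41 (normexp) to 1.03 (no scaling).

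Differences between 2 member genes on the same array do not depend on any single scaling factor per array. Quantile normalization and cyclic loess adjust probes by their signal and can change them, and the pairs were not recomputed under these settings. The differences were compared between the groups for all 45 pairs of genes, with the brightest probe for Spred1. The groups did not overlap for 12 of the 45 pairs, each with an exact two-sided permutation p of 0.0286. Over all pairs of the genes tested, 28.2% did not overlap, so the count for the members is near this background. After Benjamini-Hochberg adjustment over the 45 pairs 0 passed (smallest adjusted p = 0.107), and at least 26 pairs at the smallest possible p would have been needed for any to pass. With limma on the same differences, a test added after seeing the data, 14 of the 45 passed. Dusp5 against Spry4, Dusp5 against Spry2 and Dusp4 against Dusp6 were among them. Spry2 and Spry4 were in 6 of the 14 each and lost to their partners, and Dusp4 and Dusp5 were in 3 each and gained. The share over all pairs of genes was not computed for limma, so the 14 have no background beside them. Dusp4 or Dusp5 was in 8 of the 12 pairs without overlap, and in each of the 8 it gained on its partner. Spry2 was in 5 of the 12 and lost to its partner in each. Spry2 and Spry4 lay in signal group 2, with a median of -0.33. Their partners here and by limma, other than Dusp5, lay in brighter groups with medians between -0.055 and 0.0021. The group medians thus differ in the direction of these losses, and the part of brightness in them was not tested. Dusp5 lay in group 2 as well.

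The Dusp5 signal gained 0.87 on that of Spry4 (1.83-fold) and 0.73 on that of Spry2 (1.66-fold). Dusp5 had the highest change of the members and Spry4 and Spry2 the lowest, so these gains are the largest by construction. They restate the changes of the single genes and are not separate evidence. The Dusp5 minus Spry4 difference was 0.24, 0.049, -0.27 and -0.46 in the controls and 0.85, 1.10, 0.42 and 0.66 with irisin, with no overlap. The gain was 0.75 to 0.99 when any 1 array was left out, and 0.19 and 0.62 with normexp at an offset of 50 and of 1. All 3 of these genes have dim probes of group 2, so that this contrast was made between probes of about the same brightness.

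Among the brighter probes, the largest gain without overlap was that of Dusp4 on Dusp6. Their difference varied by an SD of 0.049 among controls and 0.071 among irisin samples, and it changed by 0.32, which is 1.25-fold in favor of Dusp4, or by 0.14 with normexp at an offset of 50. The difference between the medians of their signal groups (0.0021 for group 5 and -0.20 for group 10) has the same sign. Dusp6 also lost 0.46 to Dusp5 and 0.19 to Spry1 without overlap of the groups. The first of these turned to -0.36 with normexp at an offset of 50.

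**Figure D4:**
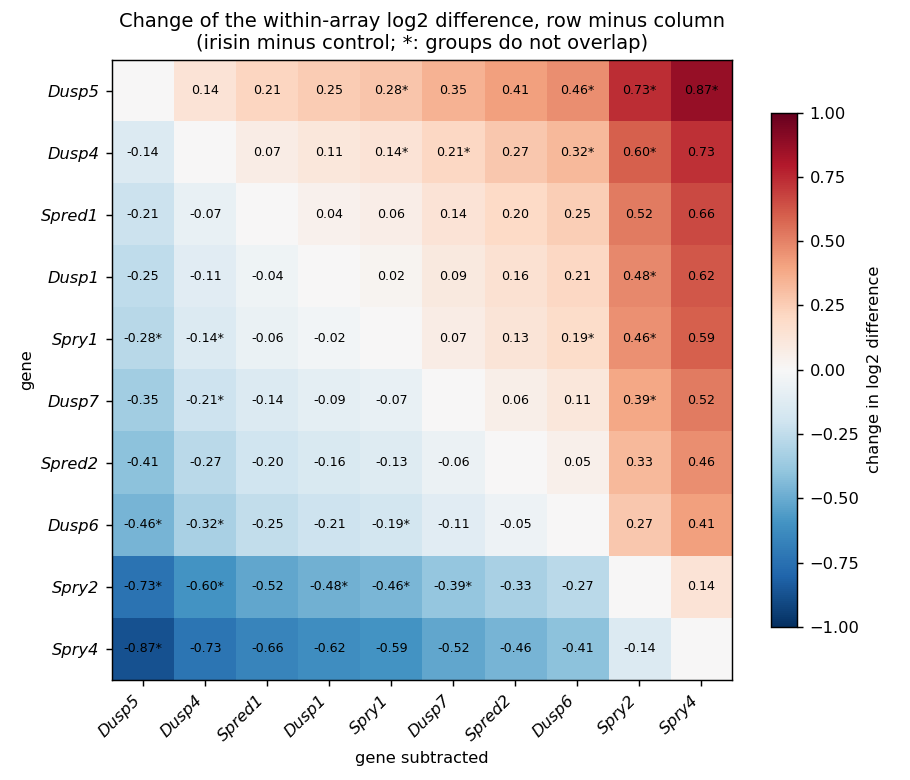
Change of the within-array log2 difference between each pair of member genes, row gene minus column gene, irisin minus control, with an asterisk where the 4 irisin arrays do not overlap the 4 control arrays. Genes are ordered by their own change, so red fills the upper right, and the largest value is the 0.87 of Dusp5 against Spry4.

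The rest of the pathway was looked at through 4 lists, taking the brightest probe of each gene. Of 14310 genes tested this way, 0.531% were called higher and 10.2% lower with irisin, with a median change of -0.064. The 10 feedback inhibitors had a median of -0.019 with 0 called. Of the 7 other MAP kinase phosphatases, SPRY and SPRED genes, 5 were tested and 0 were called, with a median of -0.023. In that list Dusp8, a phosphatase of JNK and p38, changed by 0.28 (adjusted p = 0.0169 by limma) while its other probe changed by -0.13. Dusp16, which prefers JNK, changed by 0.15 and by -0.04 on its other probe. Dusp9, a cytoplasmic MAP kinase phosphatase, changed by -0.13 and Dusp10, a phosphatase of p38 and JNK, by -0.023. Dusp2, another phosphatase of the list, was well above background on only 7 arrays and changed by -0.48 (adjusted p = 0.0569 by limma). Dusp2 was called lower with normexp (-0.63). It turned to 0.13 with quantile normalization and to 0.065 with cyclic loess, and was not called in either.

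Of 10 other restraints on RAS and RAF, 0 were called higher and 1 lower, with a median of 0.018. The called gene was Pebp1, the RAF kinase inhibitor protein, which changed by -0.66 (adjusted p = 0.00266 by limma), or by 0.075 with no scaling, while its other probe changed by -0.20. The brightest Pebp1 probe lay in the brightest signal group, where the median change was -0.20 and 2.24% of probes were called lower. Nf1, the RAS GTPase activator that Spred1 recruits, changed by -0.50 (adjusted p = 0.00182) and was short of 1.5-fold. Cbl, a ubiquitin ligase for receptors, changed by 0.52 and Rasa2, a RAS GTPase activator, by 0.42, and neither passed the adjusted p (0.147 and 0.0923).

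Of 21 adaptors and kinases of the cascade itself, 0 were called higher and 1 lower, with a median of -0.053. These counts leave out the dimmer probes. Rps6ka3 changed by 0.0011 on its brightest probe and by 0.65 and 0.54 on its other probes. The called gene was Ksr1, a scaffold that gathers RAF, MEK and ERK, at -0.87 (adjusted p = 0.000115 by limma), and its other probe changed by -1.03. The brightest Ksr1 probe lay in signal group 2, counted from the dimmest. In that group the median change was -0.33 and 34.3% of probes were called lower. Shc1, an adaptor of receptors, changed by -0.21, Shoc2, a scaffold that helps to activate RAF, by 0.31, and Map2k1, which encodes MEK1, by 0.27, none of them past the adjusted p.

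Of 19 other transcripts known to be induced by ERK, 18 were tested, 1 was called higher and 1 lower, with a median of -0.050. Myc, the growth transcription factor, rose by 0.63 (adjusted p = 0.000362 by limma), and it was called higher under quantile normalization (0.67), cyclic loess (0.70) and normexp (0.79) too. Etv1, an ETS factor that ERK induces, was called lower with a change of -0.89 (adjusted p = 0.00380). Its probe lay in the dimmest signal group, where the median change was -0.51 and 45.1% of probes were called lower. Lif, a cytokine, changed by 0.35 (adjusted p = 0.0290) and Epha2, an ephrin receptor, by -0.18. With quantile normalization and with cyclic loess, Pebp1 (-0.52 in both), Ksr1 (-0.54 and -0.50) and Etv1 (-0.40 in both) were lower but were not called, and the calls in the 4 lists were then 3 higher and 0 lower. Besides Myc these were Cbl (0.90 and 0.93) and Sos1 (1.13 and 1.07). With normexp, however, Cbl turned to -0.43, Sos1 to -0.50 and Lif to -0.045, and none of these was called. Sos1, which loads RAS with GTP, changed by 0.53 in the reported fit (adjusted p = 0.0248), was well above background on 4 of the 8 arrays and was named after its values were seen.

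**Figure D5:**
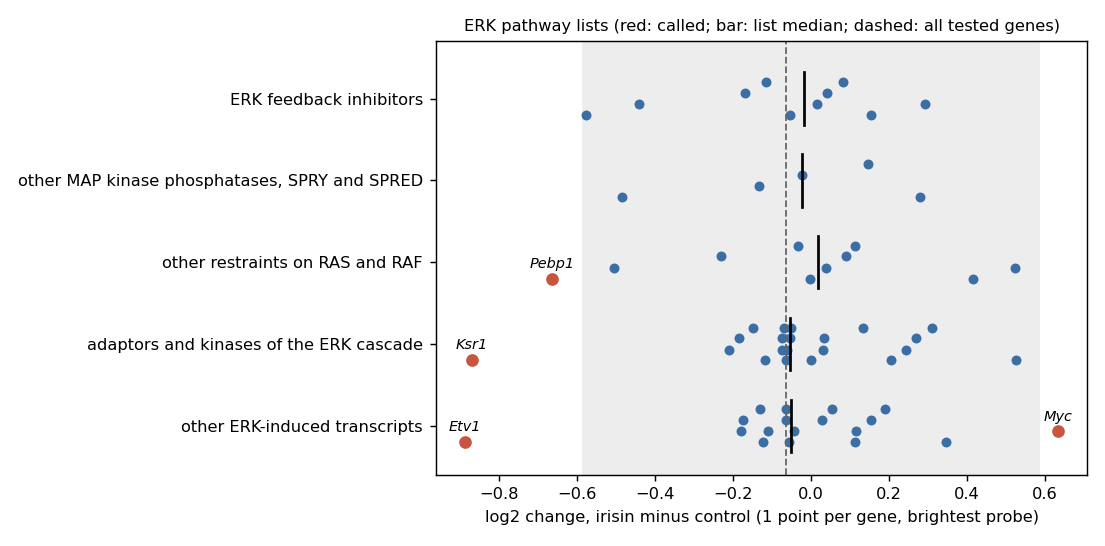
Log2 change of each tested gene of the ERK feedback inhibitors and of 4 other lists (points, brightest probe), with called genes in red, the median of each list as a bar, the median of all 14310 tested genes as a dashed line and changes under 1.5-fold shaded. The 10 feedback inhibitors lie between -0.58 and 0.29 and none is red, and Pebp1, Ksr1, Etv1 and Myc are the 4 called genes.

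No member was called, so the member with the largest change, Spry4, was set against all other genes with probes well above background on all 8 arrays. Over the 8 arrays the probes most like it among 18024 were those of Lyar (Pearson r = 0.976), Cldn34c4 (r = 0.974) and Rnf130 (r = 0.971). All 3 were dim too, with unscaled signals between 15.2 and 37.6, and their own changes were -0.78, -0.15 and -0.61. The r values describe 8 arrays that share slides by group and are the highest of many.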

How the data were processed

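Gene expression was measured in AML12 cells on 8 one-color Agilent arrays, 4 of control cells and 4 of cells given 0.5 µg/ml irisin for 24 h, grouped by their deposited labels. The authors labeled RNA with Cy3 and processed the scans with Agilent Feature Extraction 12 (version from the submitters' processing notes), and they deposited signal intensity on a linear scale, background-subtracted and not normalized between arrays. No depth applies to arrays, and the number of arrays limits the precision.

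Spots marked as outliers were left out, none of them on a member probe, the spots of a probe were averaged, and the log2 of the 75th percentile of an array was subtracted from its log2 signals. RefSeq genes of GRCm38.p6 named 28663 of 39429 probes by their accession. limma 3.58.1 (lmFit and eBayes, R 4.3.3) was fitted to 24091 probes well above background on all 4 arrays of a group, with p adjusted by Benjamini-Hochberg over all of them. A probe was called at 1.5-fold or more with an adjusted p under 0.05. Single probes and within-array differences had an exact permutation test, two-sided, over the 70 ways to assign the arrays. The fit was tested on simulated data. Python 3.11.15, pandas 2.3.3, scipy 1.17.1 and matplotlib 3.10.9 were used for the rest.

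The members, the lists, the markers and the tests were chosen with earlier results of these data known. The genes named are all members and, in each list, the called genes and the 2 largest increases and decreases among probes well above background on all 8 arrays. Sos1, Dusp2 and Rps6ka3 were named outside this rule. The lists were written from general knowledge. Normexp was run with the background mean and SD of the negative control spots, because its own estimate failed on irisin replicates 2 and 4, and on the median spot signal. The normexp offset of 1 and limma on the within-array differences were chosen after seeing the data. Other alternatives were quantile normalization, cyclic loess, the median of detected probes, spike-in scaling over 8 probes, no scaling, the deposited value table, other filters, marked spots kept, an intensity trend, the replicate block, the methods' test, other thresholds and each array left out. Protein sequences were not used here.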

Additional observations from a re-analysis of the deposited data

Results flagged for a closer look

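In 2 of the 24 groups of 4 arrays checked over the 12 member probes, 1 array stood far from the rest. About 1 in 20 groups would do so by chance. For Spry1, irisin replicate 2 was at 0.39 (log2 relative to the 75th percentile) and the other 3 irisin arrays lay between -0.026 and 0.018. For Spry4, irisin replicate 3 was at -5.13 and the other 3 lay between -5.59 and -5.54. Irisin replicate 2 was also the highest irisin array for Dusp4, Dusp5, Dusp6 and, by a small margin, Spry2. The SD of its log2 difference from another irisin array reached 0.405. The part of this array in the results was not tested beyond leaving it out.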

How the results depend on the processing

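Each member probe was recomputed under 21 other settings, 252 values in all. Spike-in scaling and no scaling move all probes up together, and 11 of the 17 changes of direction came from them. Of the 228 values under the other settings, 215 had the same direction and side of the threshold, 7 became called in the same direction and 6 turned. The member probes called, 0 as reported, were 1 with normexp, 1 with quantile normalization, 1 with cyclic loess, 1 with the median of detected probes (Spry4, -0.59), 6 with spike-in scaling, 9 with no scaling, 2 on the adjusted p alone and 0 to 1 with each array left out. The calls over all probes, 2987 as reported, were 1688 with quantile normalization, 1625 with cyclic loess, 7862 with spike-in scaling, 15081 with no scaling, 12934 with no filter on dim probes, 5909 on the adjusted p alone, 800 at 2-fold and 2784 to 3386 with each array left out. Irisin replicate 2 and irisin replicate 3 moved the higher calls most, from 172 to 335 without the former and to 102 without the latter. The calls in the 4 lists, 4 as reported, were 23 with spike-in scaling, 44 with no scaling and 3 to 7 with each array left out, 7 without irisin replicate 2. Under spike-in scaling and without any scaling, the changes that turned were Dusp6 (0.40 and 0.57), Dusp7 (0.51 and 0.68), Spry2 (0.13 and 0.30), Spred2 (0.45 and 0.62) and the Spred1 probe on NM_001277256 (0.52 and 0.69), the last also with quantile normalization (0.27) and cyclic loess (0.29). Spry4 turned with no scaling (0.16). Dusp5 turned with normexp (-0.41), as did Dusp5 minus Dusp6 (-0.36). With each array left out, Dusp1 ranged from 0.0023 to 0.069, Dusp4 from 0.076 to 0.22, Dusp7 from -0.092 to -0.0071, Spry1 from -0.082 to 0.056 and Spred2 from -0.21 to 0.0043. The cause was not tested. The correlations of same-numbered deviations were 0.11, -0.35, -0.13 and 0.17. The same-numbered irisin array was the best match for control replicates 1 and 4 and not for 2 and 3. These values cannot decide whether the replicate numbers pair the samples. With the replicate number as a block, 3004 probes and 0 member probes were called. The within-array differences that passed, 0 of 45 by the exact test as reported, were 14 with limma on the differences and 21 with the replicate block in limma, which are other tests. The share over all pairs of genes was not computed for either of them. The signals of Dusp5, Spry2, Spry4 and 1 Spred1 probe lay closest to background, and their values moved with the background correction.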
